A study of Mus musculus with 6 samples.

Results

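The 32 genes described here are transcripts by which macrophages (20 genes), dendritic cells (6 genes) and granulocytes or mast cells (6 genes) are usually recognised, and they were followed in libraries sorted as group 3 innate lymphoid cells (ILC3s). They were chosen by symbol from a named list, and all 32 were found among the 25075 genes of the deposited count table. The 6 mouse libraries came from the small intestine of animals on a B6 background. Of these, 3 were labelled Batf-deficient (Batf fl/fl, PLZF-Cre+) and 3 were labelled control (Batf fl/fl, PLZF-Cre-), so that every library carried the floxed allele and the groups differed by the Cre. No age or sex was given. PLZF is a zinc finger factor made in precursors of innate lymphoid cells and in some T cells, so a Cre driven with it acts in cells that pass through a PLZF-expressing stage. Sorted cells were lineage-negative, CD90.2+ and KLRG1-, 2000 to a library, and 2 ng of RNA went into Smart-seq2, which copies whole transcripts from little RNA.

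Innate lymphoid cells are lymphocytes without rearranged antigen receptors. Intestinal macrophages take up dying cells and microbes, make complement component C1q and depend on CSF1 receptor signalling. Dendritic cells carry antigen to T cells, and granulocytes and mast cells store proteases and antimicrobial proteins in granules. A lineage-negative gate is normally built to leave myeloid cells out, but several genes on such marker lists are also used by lymphocytes. In the present list 11 genes were counted as such: Fcer1g, Tyrobp, Fcgr3, Ctss, Mpeg1, Cx3cr1, Itgam, Itgax, Zbtb46, Flt3 and Cpa3.

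Total counts were between 8228513 and 13615895 in libraries labelled Batf-deficient and between 9080012 and 17334207 in those labelled control. Levels below are in CPM, which sets the counts of a gene against the library total after TMM (trimmed mean) normalisation, and 3 counts equalled 0.241 to 0.425 CPM in libraries labelled Batf-deficient and 0.155 to 0.282 CPM in those labelled control. Batf, the deleted gene, had 38.2, 41.3 and 41.2 CPM in libraries labelled Batf-deficient and 15.1, 15.3 and 18.9 CPM in those labelled control, which goes against the labels (log2 fold change 1.29 ± 0.16 SE, adjusted p = 1.70e-05, edgeR quasi-likelihood test). Scaled to the summed counts of 20 genes of leukocytes in general, Batf was lower, at a log2 fold change of -1.29 (adjusted p = 1.24e-05, edgeR). Which reads fell in the deleted exons is not known from gene counts, so the group names below are those of the labels. The scaling matters for every gene: the median log2 fold change of all 15261 genes tested was 0.02 with TMM and -2.56 with the leukocyte scaling, so a value on the second scale is read against -2.56. Ptprc (CD45, on all leukocytes) had 561.7, 573 and 452 CPM in libraries labelled Batf-deficient and 155, 169 and 129 CPM in those labelled control, and Thy1 (CD90, a marker of the sort) had 449, 414 and 492 CPM in libraries labelled Batf-deficient and 39.6, 47.2 and 49.7 CPM in those labelled control.

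RNA of other tissues moved with the groups. The 10 genes of pancreatic acinar cells took 0.000143% to 0.000231% of counts in libraries labelled Batf-deficient and 8.71% to 8.98% in those labelled control. The 17 epithelial genes took 0.0487% to 0.0581% in libraries labelled Batf-deficient and 1.68% to 1.78% in those labelled control. The 8 genes of B and plasma cells took 0.0478% to 0.0529% in libraries labelled Batf-deficient and 0.963% to 0.983% in those labelled control, and the 12 genes of stroma and endothelium 0.0124% to 0.0152% in libraries labelled Batf-deficient and 0.126% to 0.135% in those labelled control. In the opposite direction, 21 genes of ILCs and T cells took 0.748% to 0.771% in libraries labelled Batf-deficient and 0.187% to 0.190% in those labelled control. The part of these differences in the results below was not tested. In bulk RNA, fewer cells of a type and less RNA per cell cannot be told apart.

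Most of the myeloid transcripts were lower in libraries labelled Batf-deficient, and with TMM the 3 higher genes were Fcer1g, Xcr1 and Zbtb46, none of which was higher with the leukocyte scaling. Of the 32 genes, 25 had enough counts to be tested, and 18 of these were lower and 3 higher at an adjusted p of 0.05 (edgeR), while 4 were not called. Over all genes tested, 34.1% were lower and 30.2% higher. The groups did not overlap in 17 of the 25 tested genes in the lower and 3 in the higher direction, where 36.5% and 34.7% of all genes tested showed no overlap in those directions. Of the 25, 9 (Cd68, Adgre1, Mrc1, Fcgr1, Ms4a7, Cx3cr1, Flt3, Mcpt1 and Cpa3) entered the test only through their level in the libraries labelled control. The other 16 passed in libraries labelled Batf-deficient themselves, and of these 11 were lower, 3 higher and 2 not called. The median log2 fold change of the 25 was -2.997, against 0.02 over all genes. This median and the counts under other scalings below include the 9 genes that entered only through the libraries labelled control. With the leukocyte scaling, 24 of the 25 were lower and none was higher, where 88.4% of all genes were lower and 1.68% higher, and the median was -5.55 against -2.56 for all genes. With a scaling to the 21 genes of ILCs and T cells, 24 were again lower and none higher, where 86.3% of all genes were lower and 2.09% higher, with a median of -5.35 against -2.36.

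**Figure D1:**
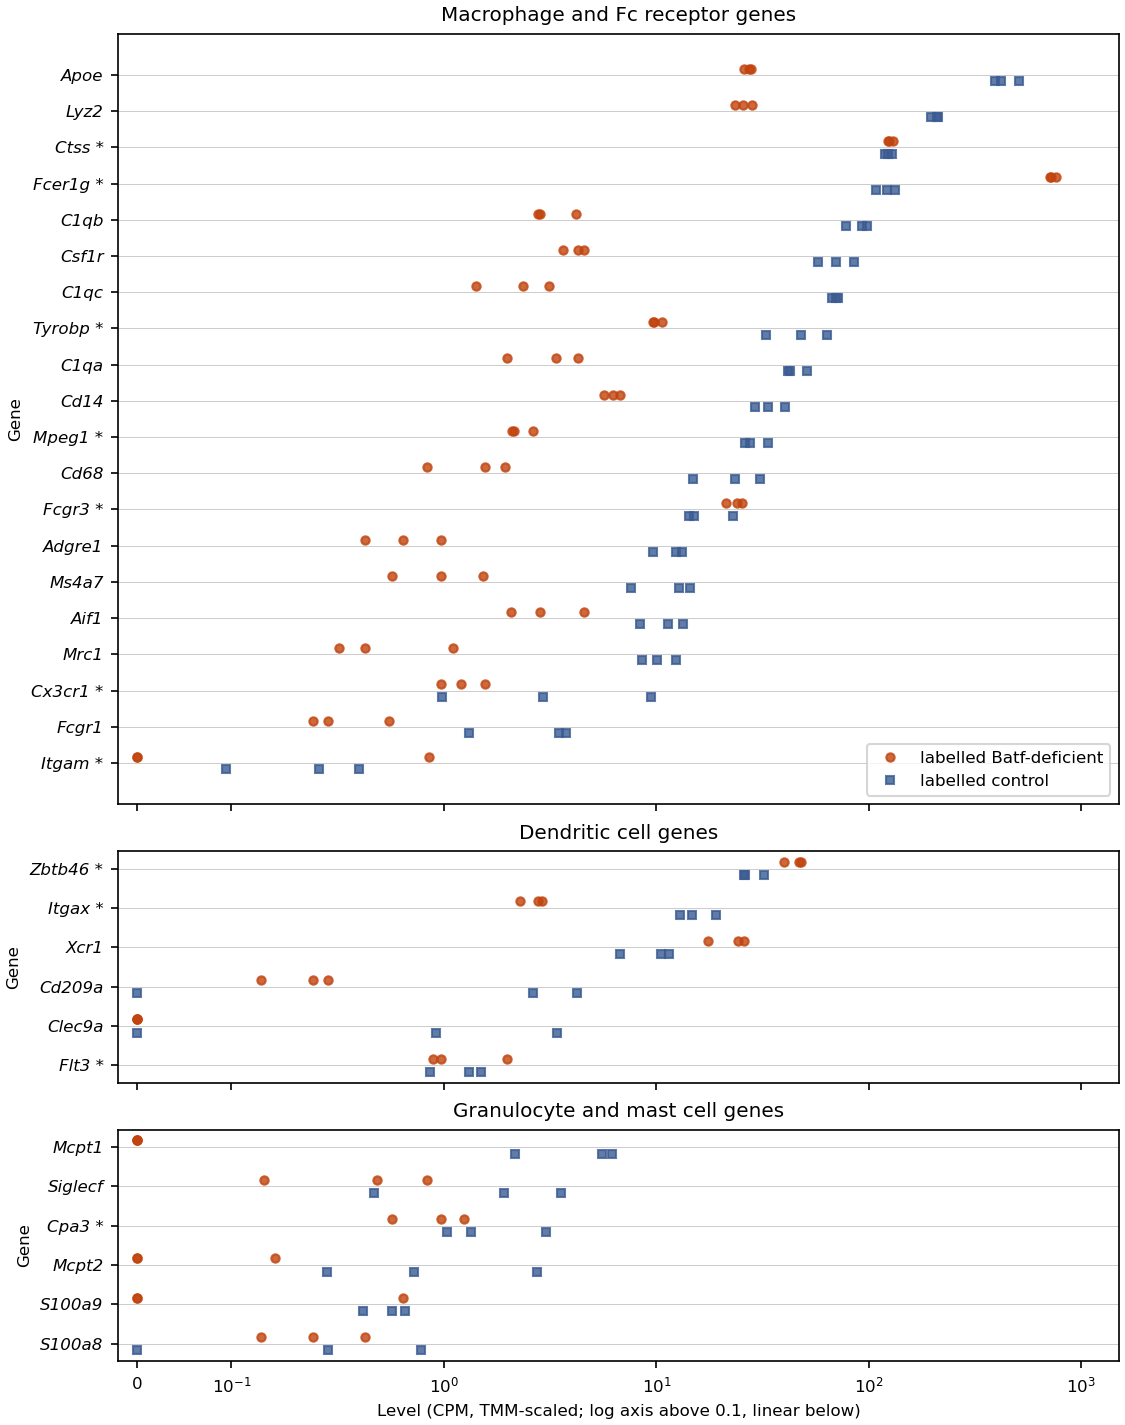
TMM-scaled CPM of the 32 genes in each of the 6 libraries (points; horizontal axis on a log scale that is linear below 0.1 CPM, genes down the page), in panels of macrophage, dendritic, and granulocyte and mast cell genes, with an asterisk on genes that lymphocytes also express. The libraries labelled Batf-deficient lie far below those labelled control for most macrophage genes, from Apoe to Mpeg1, level with them for Ctss and above them for Fcer1g, Xcr1 and Zbtb46.

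In the libraries labelled control, the most abundant genes of the macrophage list were the secreted products Apoe and Lyz2. Apoe, the lipid-carrying apolipoprotein E (chr7:19696109-19699188, GRCm38), had 25.9, 27.8 and 27.2 CPM in libraries labelled Batf-deficient and 419, 391 and 510.1 CPM in those labelled control. Every library labelled Batf-deficient lay at about the same low level, and the gene was 16.3-fold lower (log2 fold change -4.03 ± 0.13 SE, adjusted p = 1.23e-10, edgeR). Lyz2, the lysozyme of macrophages and neutrophils (chr10:117277331-117282321), had 28.2, 23.5 and 25.5 CPM in libraries labelled Batf-deficient and 209, 211 and 196 CPM in those labelled control, a 7.98-fold lower level (log2 fold change -2.997 ± 0.11 SE, adjusted p = 5.43e-10). The groups did not overlap for either gene.

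The reading of Lyz2 is limited by its neighbour Lyz1, the lysozyme of Paneth cells at the base of intestinal crypts. Their coding sequences are 444 bases each and identical at 422 of them (95%), with identical runs of up to 118 bases, so short reads may be assigned to either gene. The first 150 coding bases (GENCODE M21 transcripts) are shown because they hold 14 of the differences, which are in capitals:

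Lyz2: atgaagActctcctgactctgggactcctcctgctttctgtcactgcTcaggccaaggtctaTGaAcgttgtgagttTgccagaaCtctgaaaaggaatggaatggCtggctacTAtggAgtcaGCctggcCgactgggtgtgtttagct

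Lyz1: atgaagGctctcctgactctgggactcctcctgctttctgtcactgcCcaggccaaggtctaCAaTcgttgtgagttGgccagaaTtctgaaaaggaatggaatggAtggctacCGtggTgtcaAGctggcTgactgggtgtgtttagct

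Lyz1 had 150.2, 154 and 165 CPM in libraries labelled Batf-deficient and 1719, 1645 and 1848 CPM in those labelled control (log2 fold change -3.47, edgeR). Within a library, there were 0.188, 0.152 and 0.155 counts of Lyz2 for each count of Lyz1 in libraries labelled Batf-deficient and 0.122, 0.128 and 0.106 in those labelled control. How many Lyz2 counts came from Lyz1 RNA was not tested.

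The 3 chains of C1q, which starts the classical complement pathway and is made mainly by macrophages, were among the largest decreases. Their genes lie side by side on chromosome 4 (GRCm38), C1qb at 136880129-136886187, C1qc at 136889804-136893065 and C1qa at 136895917-136898803. C1qa had 4.29, 1.98 and 3.37 CPM in libraries labelled Batf-deficient and 41.7, 42.5 and 50.9 CPM in those labelled control (14.0-fold lower, log2 fold change -3.80 ± 0.24 SE, adjusted p = 5.22e-08, edgeR). C1qb had 2.77, 2.84 and 4.18 CPM in libraries labelled Batf-deficient and 97.7, 92.6 and 77.8 CPM in those labelled control (27.4-fold lower, -4.73 ± 0.19 SE, adjusted p = 9.71e-10). C1qc had 2.35, 1.42 and 3.13 CPM in libraries labelled Batf-deficient and 71.3, 69.7 and 67.2 CPM in those labelled control (30.2-fold lower, -4.84 ± 0.22 SE, adjusted p = 2.51e-09). All 3 chains were low in every library labelled Batf-deficient and high in every one labelled control. The proportions of the chains, which rest on few counts in libraries labelled Batf-deficient, were not all alike: there were 1.82, 1.4 and 1.08 counts of C1qa per count of C1qc in libraries labelled Batf-deficient and 0.585, 0.609 and 0.757 in those labelled control, without overlap. C1qb per C1qc was 1.18, 2 and 1.33 in libraries labelled Batf-deficient and 1.37, 1.33 and 1.16 in those labelled control, which overlap.

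On a list of 16 complement genes that includes the C1q chains, 13 of 15 tested were lower and 2 were higher, with a median log2 fold change of -3.38. Of all genes tested, 34.1% were lower and 30.2% higher. With the leukocyte scaling all 15 were lower, where 88.4% of all genes were, with a median of -5.95 against -2.56. Some of the lower genes entered the test only through their level in libraries labelled control. Cfb, factor B of the alternative pathway, fell to 4.003 ± 0.401 CPM in libraries labelled Batf-deficient, against 72.8 ± 7.08 CPM in those labelled control (SD, n = 3 each), with an adjusted p of 8.92e-10 (edgeR). The 2 higher genes were Itgb2, the beta chain of complement receptors and of the lymphocyte integrin LFA-1, and C2, a protease of the classical pathway. Itgb2 averaged 215.7 ± 2.85 CPM in libraries labelled Batf-deficient and 62.5 ± 16.9 CPM in those labelled control (adjusted p = 1.16e-06), and C2 averaged 22.5 ± 1.70 CPM in libraries labelled Batf-deficient and 11.8 ± 3.86 CPM in those labelled control (adjusted p = 0.00619). With the leukocyte scaling both had negative log2 fold changes, of -0.79 and -1.65, above the median of all genes.

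The surface receptors and lineage proteins of macrophages fell together. Csf1r, the receptor for CSF1 and IL-34 on which tissue macrophages depend, had 4.56, 4.25 and 3.62 CPM in libraries labelled Batf-deficient and 85.5, 57.4 and 70.2 CPM in those labelled control (17.1-fold lower, log2 fold change -4.11 ± 0.20 SE, adjusted p = 5.16e-09, edgeR). Its exons overlap those of Hmgxb3 on the opposite strand by 873 bases, and whether counting used strand is not given. Cd14, a co-receptor for bacterial lipopolysaccharide, had 5.67, 6.24 and 6.75 CPM in libraries labelled Batf-deficient and 40.5, 29.0 and 33.3 CPM in those labelled control, a smaller difference of 5.51-fold (log2 fold change -2.45 ± 0.20 SE, adjusted p = 5.22e-07). Neither gene overlapped between the groups. Adgre1, which encodes the macrophage antigen F4/80, had 0.968, 0.425 and 0.643 CPM in libraries labelled Batf-deficient and 13.3, 9.59 and 12.3 CPM in those labelled control. Mrc1, the mannose receptor, had 1.11, 0.425 and 0.321 CPM in libraries labelled Batf-deficient and 10.1, 8.56 and 12.4 CPM in those labelled control. Both were close to the level of a few counts in libraries labelled Batf-deficient, with log2 fold changes of -4.10 ± 0.39 SE (adjusted p = 2.13e-06) and -4.12 ± 0.47 SE (adjusted p = 1.02e-05).

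Cd68, a glycoprotein of macrophage lysosomes, had 0.830, 1.56 and 1.93 CPM in libraries labelled Batf-deficient and 14.9, 23.3 and 30.7 CPM in those labelled control (log2 fold change -3.95 ± 0.37 SE, adjusted p = 1.63e-06, edgeR). Mpeg1, the pore-forming protein perforin-2 of phagocytes and some lymphocytes, had 2.63, 2.13 and 2.09 CPM in libraries labelled Batf-deficient and 26.0, 33.6 and 27.6 CPM in those labelled control (-3.68 ± 0.24 SE, adjusted p = 5.34e-08). Both were separated by group, with a wider spread of Cd68 among the libraries labelled control. Ms4a7, a membrane protein of tissue macrophages, had 1.52, 0.567 and 0.964 CPM in libraries labelled Batf-deficient and 12.8, 14.4 and 7.61 CPM in those labelled control (-3.50 ± 0.43 SE, adjusted p = 1.82e-05). Aif1, the actin-binding protein Iba1, had 2.07, 2.84 and 4.58 CPM in libraries labelled Batf-deficient and 8.37, 11.4 and 13.4 CPM in those labelled control (-1.77 ± 0.36 SE, adjusted p = 0.000920), the smallest decrease among the 13 macrophage genes that were not counted here as shared with lymphocytes. Of these 13 genes, 8 passed the filter in libraries labelled Batf-deficient themselves and were all lower, with log2 fold changes from -4.84 for C1qc to -1.77 for Aif1. The other 5 (Cd68, Adgre1, Mrc1, Fcgr1 and Ms4a7) were also lower but had entered the test only through their level in libraries labelled control.

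Fractalkine receptor and CD11b gave no firm result. Cx3cr1, which marks resident intestinal macrophages and some lymphocytes, had 0.968, 1.56 and 1.20 CPM in libraries labelled Batf-deficient and 2.91, 9.42 and 0.983 CPM in those labelled control. The groups overlapped, and the call (log2 fold change -1.84 ± 0.73 SE, adjusted p = 0.0430, edgeR) rested on control replicate 2, without which the log2 fold change was -0.61 (adjusted p = 0.423). The call was also lost with the replicate number as a block (-1.32, adjusted p = 0.0969). Itgam, the alpha chain of the integrin CD11b, had only 0, 6 and 0 counts in libraries labelled Batf-deficient and 1, 7 and 5 counts in those labelled control and was not tested. Its exons share 3450 bases with the read-through gene Gm49368, which had 0, 0 and 0 counts in libraries labelled Batf-deficient and 2, 0 and 48 counts in those labelled control.

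On the wider list of macrophage and monocyte genes, 22 of 26 tested were lower, 1 was higher and 3 were not called, with a median log2 fold change of -2.85. Of all genes tested, 34.1% were lower and 30.2% higher. With the leukocyte scaling 23 of the 26 were lower, which lies near the 88.4% of all genes, with a median of -5.42 against -2.56. Mertk, a receptor for the engulfment of dying cells, had 0.415, 0.709 and 0.402 CPM in libraries labelled Batf-deficient and 13.2, 16.0 and 18.8 CPM in those labelled control (log2 fold change -5.00, adjusted p = 2.07e-07, edgeR). Mertk and some other lower genes of this list entered the test only through their level in libraries labelled control. Tgfbi, an extracellular matrix protein (-4.79, adjusted p = 1.05e-09), and Lyve1, a hyaluronan receptor of some macrophages and of lymphatic endothelium (-3.34, adjusted p = 2.53e-09), were also lower. The higher gene was Ccr2, the chemokine receptor of monocytes and also of some lymphocytes (2.20, adjusted p = 1.90e-06, and -0.37 with the leukocyte scaling). Spi1, which encodes PU.1, the ETS-family factor of the myeloid and B cell lineages, had 3.04, 2.69 and 2.33 CPM in libraries labelled Batf-deficient and 13.2, 24.1 and 21.1 CPM in those labelled control (-2.87 ± 0.30 SE, adjusted p = 4.75e-06).

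Because PU.1 binds sequences with a GGAA core, the promoters of 26 of the 32 genes (250 bases before to 50 after the RefSeq start, GRCm38.p6) were searched for AGGAAGT on both strands. These genes have 30 promoters in the table, since 3 of them have several, and 7 promoters of as many genes (23.3% of promoters) held a match, against 3072 of 32851 promoters of all genes (9.35%). Matches that lie wholly before the start, which leaves out that of Ctss, are shown with 61 bases in the direction of each gene, so that the motif, in capitals, can be placed in its promoter; it reads ACTTCCT in each:

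Lyz2, chr10:117282339-117282399 (-): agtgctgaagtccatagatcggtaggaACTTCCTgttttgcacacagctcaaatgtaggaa

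C1qb, chr4:136886220-136886280 (-): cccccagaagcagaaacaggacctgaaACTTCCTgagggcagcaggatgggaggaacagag

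C1qc, chr4:136893076-136893136 (-): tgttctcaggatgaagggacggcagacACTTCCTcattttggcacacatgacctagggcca

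Mrc1, chr2:14229176-14229236 (+): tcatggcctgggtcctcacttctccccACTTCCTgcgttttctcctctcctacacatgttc

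Fcgr1, chr3:96293997-96294057 (-): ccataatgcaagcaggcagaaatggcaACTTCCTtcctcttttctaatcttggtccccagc

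S100a8, chr3:90668872-90668932 (+): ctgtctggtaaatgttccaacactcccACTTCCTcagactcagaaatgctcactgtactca

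The 7 genes did not move alike: Lyz2, C1qb, C1qc, Mrc1 and Fcgr1 were lower, Ctss was not called and S100a8 was not tested. A search for TGANTCA, the motif of AP-1 factors such as BATF, on both strands found matches in 4 of the 30 promoters (13.3%; Cd68, Ms4a7, Itgax and Zbtb46), against 2565 of 32851 (7.81%). Of these, Cd68, Ms4a7 and Itgax were lower and Zbtb46 was higher with TMM and lower with the leukocyte scaling. A match is a stretch of letters and no measured site.

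The Fc receptors and their adaptors split. These receptors bind antibody and signal through ITAMs, motifs on partner chains that recruit the kinases SYK or ZAP-70. Fcgr1, the high-affinity IgG receptor of macrophages, had 0.553, 0.284 and 0.241 CPM in libraries labelled Batf-deficient and 1.32, 3.77 and 3.47 CPM in those labelled control (log2 fold change -3.02 ± 0.67 SE, adjusted p = 0.00194, edgeR). Fcgr3, a low-affinity IgG receptor of myeloid cells and natural killer cells, had 23.9, 21.3 and 25.2 CPM in libraries labelled Batf-deficient and 14.3, 15.01 and 22.8 CPM in those labelled control. The groups overlapped through control replicate 3, and Fcgr3 was not called (0.43 ± 0.21 SE, adjusted p = 0.0945), but was called higher without that library (0.69, adjusted p = 0.00652). With the leukocyte scaling its log2 fold change was -2.14 (adjusted p = 8.62e-07), where the median of all genes was -2.56.

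Fcer1g, the common gamma chain that serves Fc receptors and also activating receptors of natural killer and innate lymphoid cells (chr1:171229572-171234365), was the highest of the 32 genes in libraries labelled Batf-deficient, with 715, 719 and 760.2 CPM, against 108, 121 and 132 CPM in those labelled control. It was 6.07-fold higher (log2 fold change 2.60 ± 0.10 SE, adjusted p = 7.76e-10, edgeR) without overlap, and with the leukocyte scaling its log2 fold change was 0.02 (adjusted p = 0.827). Tyrobp, the adaptor DAP12 of myeloid and natural killer receptors (chr7:30413760-30417585), went the other way, with 9.68, 9.78 and 10.6 CPM in libraries labelled Batf-deficient and 32.9, 48.1 and 63.5 CPM in those labelled control (-2.27 ± 0.23 SE, adjusted p = 3.57e-06). The 2 adaptors thus stood at 73.8, 73.5 and 71.7 counts of Fcer1g per count of Tyrobp in libraries labelled Batf-deficient and at 3.28, 2.52 and 2.08 in those labelled control, a ratio that no scaling of the libraries can alter.

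The kinases Syk and Zap70, which read these adaptors, differed in opposite directions with TMM and with the leukocyte scaling. Syk, used by myeloid and B cells, had 0.830, 0.993 and 0.884 CPM in libraries labelled Batf-deficient and 20.3, 21.1 and 36.3 CPM in those labelled control (log2 fold change -4.84 ± 0.34 SE, adjusted p = 1.34e-07, edgeR). Zap70, used by T cells, natural killer cells and innate lymphoid cells, had 529.6, 501.6 and 565 CPM in libraries labelled Batf-deficient and 77.0, 54.7 and 58.9 CPM in those labelled control (3.07 ± 0.14 SE, adjusted p = 1.94e-09, and 0.49 with the leukocyte scaling, adjusted p = 0.00356). There were 638, 505 and 640 counts of Zap70 per count of Syk in libraries labelled Batf-deficient and 3.79, 2.60 and 1.62 in those labelled control. On the list of 25 Fc receptor and ITAM pathway genes, 12 of 23 tested were higher, 9 lower and 2 not called, where 30.2% of all genes were higher and 34.1% lower. Syk and some other lower genes of this list entered the test only through their level in libraries labelled control. Lat, an adaptor below ZAP-70 in T cells, was higher (2.56, adjusted p = 5.82e-09, and -0.01 with the leukocyte scaling, adjusted p = 0.946). Blnk, an adaptor below SYK in B cells and myeloid cells, was lower (-4.08, adjusted p = 1.76e-08). Not every gene used by myeloid and B cells was lower: among genes named after their values were seen, Lyn, a kinase that phosphorylates ITAMs (0.52, adjusted p = 0.00130), and Plcg2, a phospholipase below SYK (1.49, adjusted p = 1.02e-06), were higher with TMM and negative with the leukocyte scaling (-2.06 and -1.08). Clec7a, the beta-glucan receptor dectin-1 of myeloid cells, averaged 1.81 ± 0.275 CPM in libraries labelled Batf-deficient and 20.5 ± 4.17 CPM in those labelled control (SD, n = 3 each; adjusted p = 4.9e-07). With the leukocyte scaling the pathway list had 3 higher and 15 lower genes and a median of -2.06, where 1.68% of all genes were higher and 88.4% lower with a median of -2.56.

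**Figure D2:**
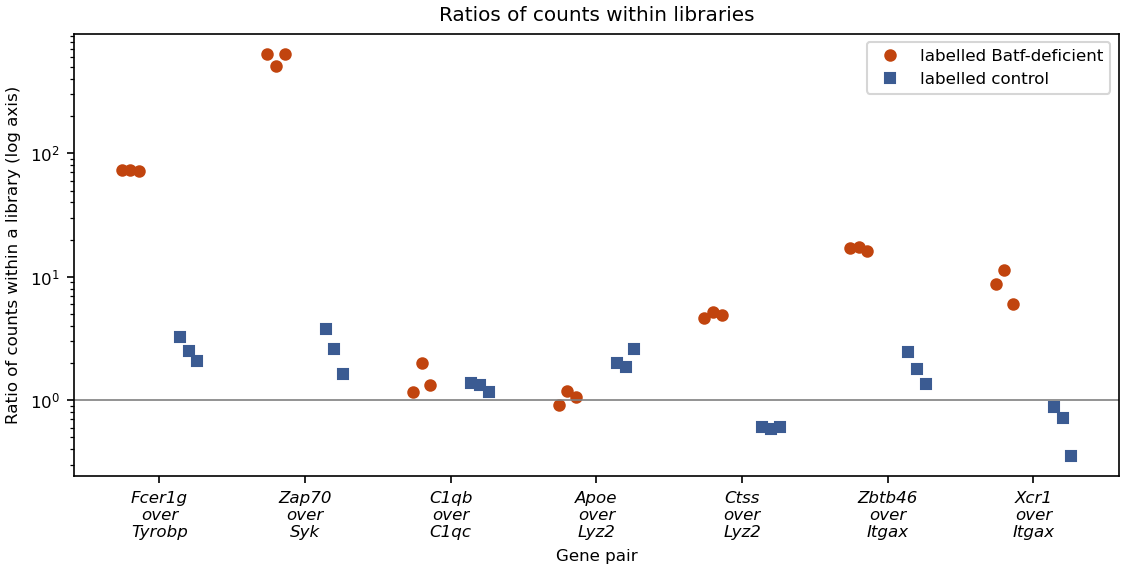
Counts of one gene per count of another within each library (points, log axis) for 7 pairs, libraries labelled Batf-deficient to the left of those labelled control. Fcer1g per Tyrobp was 71.7 to 73.8 in libraries labelled Batf-deficient and 2.08 to 3.28 in those labelled control, while C1qb per C1qc overlapped between the groups.

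Ctss, cathepsin S, a lysosomal protease that trims the class II invariant chain and is found in antigen-presenting cells and lymphocytes, was level with TMM, with 130.3, 122.5 and 124 CPM in libraries labelled Batf-deficient and 128, 123.4 and 118 CPM in those labelled control. The groups overlapped and the gene was not called (log2 fold change 0.03 ± 0.10 SE, adjusted p = 0.825, edgeR), though with the leukocyte scaling it was lower at -2.55 (adjusted p = 1.08e-10), close to the median of all genes. With unscaled library totals Ctss was also called lower (-0.36, adjusted p = 0.0115, edgeR). There were 4.62, 5.20 and 4.88 counts of Ctss per count of Lyz2 in libraries labelled Batf-deficient and 0.612, 0.586 and 0.604 in those labelled control. Apoe per Lyz2 went the other way, at 0.917, 1.18 and 1.07 in libraries labelled Batf-deficient and 2.00, 1.86 and 2.60 in those labelled control.

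Summed levels were set by a few genes. The 13 macrophage genes not counted as shared with lymphocytes summed to 80.8, 74.2 and 82.3 CPM in libraries labelled Batf-deficient and 1026, 964 and 1086 CPM in those labelled control. The 11 genes that lymphocytes also express summed to 935, 922 and 975 CPM in libraries labelled Batf-deficient and 359, 396 and 414 CPM in those labelled control. Fcer1g set the direction of that sum: without it, a choice made after the values were seen, the other 10 genes summed to 220.2, 203 and 215 CPM in libraries labelled Batf-deficient and 252, 275 and 281 CPM in those labelled control, lower without overlap. Per 1000 counts of the leukocyte panel, the 11 genes came to 74.0 to 78.9 counts in libraries labelled Batf-deficient and 174 to 195 in those labelled control. All 20 macrophage genes together averaged 973 ± 28.6 CPM in libraries labelled Batf-deficient and 1368 ± 73.1 CPM in those labelled control (SD, n = 3 each), only 1.41-fold lower. Fcer1g alone made up 74.2%, 75.6% and 75.6% of the summed counts in libraries labelled Batf-deficient and 8.06%, 9.22% and 9.12% in those labelled control. Of the 10 tested genes that lymphocytes also express, 2 were higher, 4 lower and 4 not called, which lies near the 30.2% and 34.1% of all genes that were higher and lower. Of the other genes, 9 passed the filter in libraries labelled Batf-deficient themselves, and of these 8 were lower and Xcr1 was higher with TMM and lower with the leukocyte scaling. A further 6 entered the test only through their level in libraries labelled control.

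**Figure D3:**
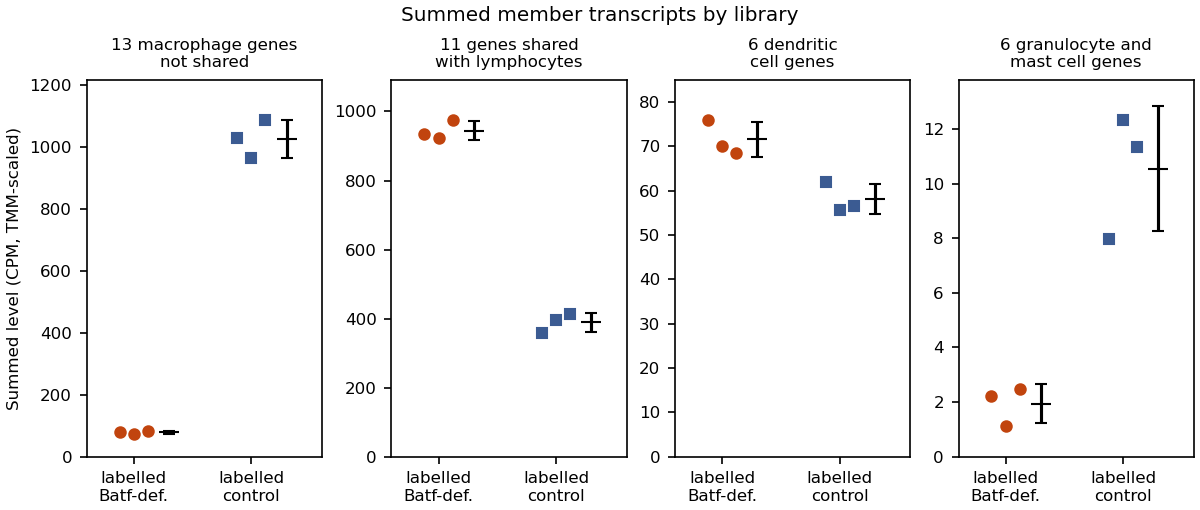
Summed TMM-scaled CPM per library (points) with the mean and SD (short line with error bar, n = 3) for 13 macrophage genes not counted as shared with lymphocytes, 11 genes that lymphocytes also express, 6 dendritic and 6 granulocyte or mast cell genes. The sets of shared and of dendritic genes overlap. The libraries labelled Batf-deficient lie at 74.2 to 82.3 CPM against 964 to 1086 CPM in those labelled control for the first set, and above them for the second, whose direction Fcer1g sets.

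Levels between genes can be compared per length. In mean CPM per kilobase of exon, Fcer1g led in libraries labelled Batf-deficient with 837, followed by Ctss with 92.5, Lyz2 with 19.6, Tyrobp with 15.03, Fcgr3 with 13.5 and Apoe with 12.6. In the libraries labelled control the order was Apoe with 206, Lyz2 with 156, Fcer1g with 138, Ctss with 90.8, C1qb with 82.1 and Tyrobp with 72.2. Fcer1g, Ctss, Tyrobp and Fcgr3 in the first order, and Fcer1g, Ctss and Tyrobp in the second, are among the genes counted as shared with lymphocytes.

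The dendritic genes did not move as a group. Of the 4 tested, Zbtb46 and Xcr1 were higher, Itgax was lower and Flt3 was not called, with a median log2 fold change of 0.36, and with the leukocyte scaling all 4 were lower with a median of -2.20, above the -2.56 of all genes. Zbtb46, a zinc finger factor of conventional dendritic cells that is also found in ILC3s, had 47.7, 39.7 and 47.0 CPM in libraries labelled Batf-deficient and 31.96, 26.1 and 25.8 CPM in those labelled control (1.602-fold higher, log2 fold change 0.68 ± 0.15 SE, adjusted p = 0.00161, edgeR), but -1.90 with the leukocyte scaling. With unscaled library totals it was not called (0.30, adjusted p = 0.121). Xcr1, the chemokine receptor of cross-presenting dendritic cells, had 24.3, 25.9 and 17.5 CPM in libraries labelled Batf-deficient and 11.5, 10.5 and 6.73 CPM in those labelled control (2.36-fold higher, 1.24 ± 0.25 SE, adjusted p = 0.000977), but -1.34 with the leukocyte scaling (adjusted p = 0.000528). Neither gene overlapped between the groups in TMM-scaled CPM.

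The other dendritic genes gave different values. Clec9a, the cross-presenting cells' receptor for dead cells, had 0 counts in every library labelled Batf-deficient and 0, 16 and 66 counts in those labelled control. Set against 3 counts over the group it was 15.4-fold lower, where the exact 95% counting interval began at 12.2-fold. It was not tested, and the groups met at 0. The 15.4-fold value rests on single libraries: it was 5.06-fold without control replicate 3 and 8.22-fold without Batf-deficient replicate 3, the deepest of its group. Its exons share 184 bases with Clec1b, which had 1, 5 and 1 counts in libraries labelled Batf-deficient and 1, 11 and 63 in those labelled control. Flt3, the receptor for the growth factor of dendritic cell precursors, had 0.968, 1.98 and 0.884 CPM in libraries labelled Batf-deficient and 1.32, 0.856 and 1.501 CPM in those labelled control (0.04 ± 0.60 SE, adjusted p = 0.958, edgeR), with a wide error. Itgax, the integrin CD11c of dendritic cells, macrophages and some lymphocytes, had 2.77, 2.27 and 2.89 CPM in libraries labelled Batf-deficient and 12.97, 14.7 and 19.0 CPM in those labelled control (-2.55 ± 0.29 SE, adjusted p = 8.21e-06). Zbtb46 and Xcr1 together took 94.9%, 93.5% and 94.1% of the summed dendritic counts in libraries labelled Batf-deficient and 70.1%, 65.8% and 57.7% in those labelled control. Xcr1 per Itgax was 8.8, 11.4 and 6.06 counts in libraries labelled Batf-deficient and 0.884, 0.716 and 0.354 in those labelled control.

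Cd209a, a lectin of monocyte-derived and other type 2 dendritic cells, was uneven, with 1, 2 and 3 counts in libraries labelled Batf-deficient and 45, 46 and 0 in those labelled control. The groups overlapped because of control replicate 3, and the gene was not tested. On a wider dendritic list, 10 of 13 tested genes were lower, 1 higher and 2 not called, with a median log2 fold change of -2.46. Of all genes tested, 34.1% were lower and 30.2% higher. With the leukocyte scaling all 13 were lower, where 88.4% of all genes were, with a median of -4.97 against -2.56. Some of the lower genes entered the test only through their level in libraries labelled control. Dnase1l3, a secreted nuclease of dendritic cells and macrophages, had 1.94, 2.84 and 2.33 CPM in libraries labelled Batf-deficient and 57.6, 68.3 and 59.7 CPM in those labelled control (-4.71, adjusted p = 1.02e-09, edgeR). Fscn1, an actin bundler of mature dendritic cells (-3.60, adjusted p = 1.22e-06), and Naaa, a lysosomal hydrolase (-1.90, adjusted p = 3.72e-06), were also lower. The higher gene was Irf8, a transcription factor of dendritic cells, B cells and other leukocytes, with a log2 fold change of 0.34 (adjusted p = 0.00741) and of -2.23 with the leukocyte scaling.

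**Figure D4:**
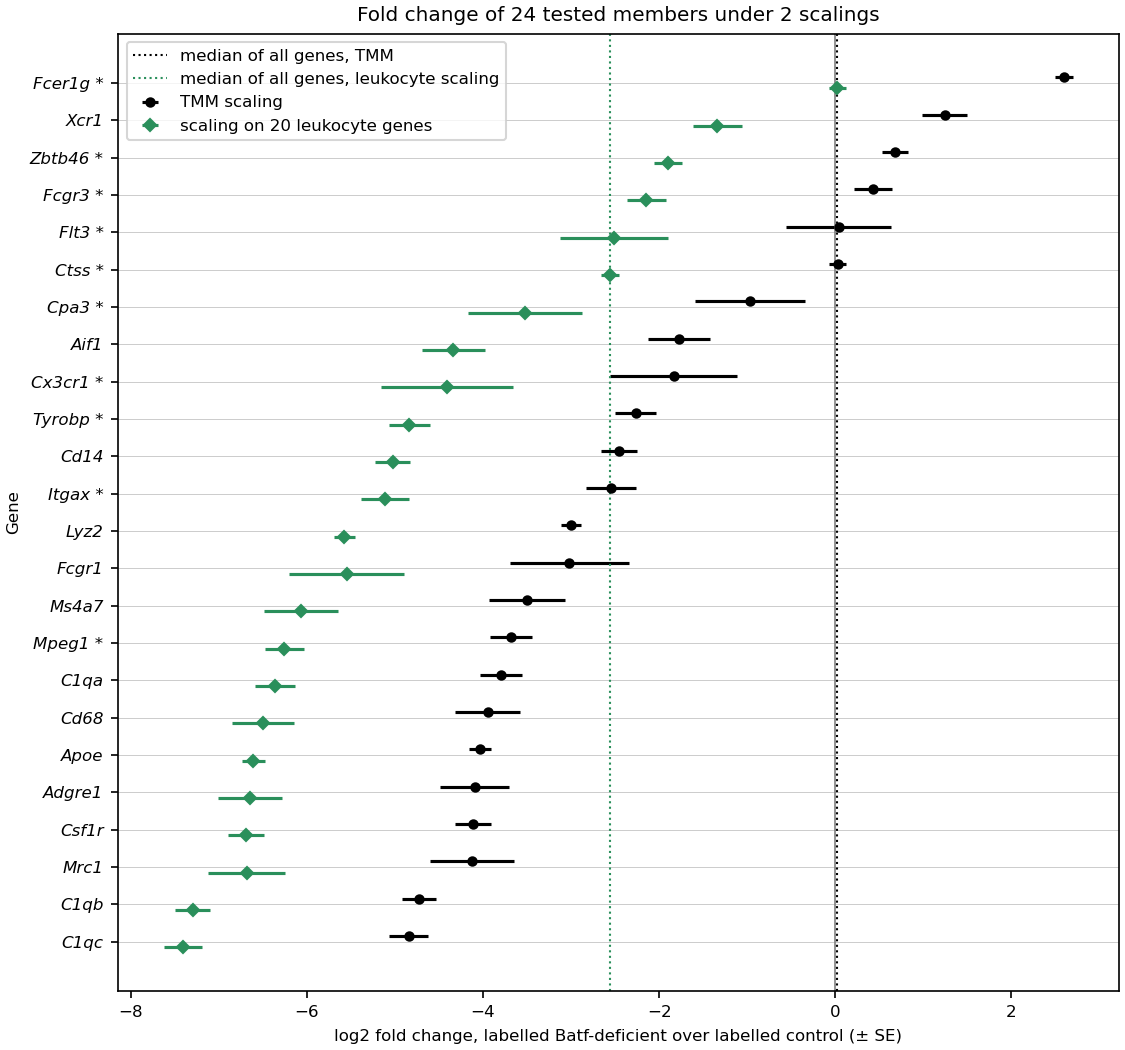
Log2 fold change, labelled Batf-deficient over labelled control, with SE, of the 24 tested genes with counts in both groups, with TMM (black circles) and with the leukocyte scaling (green diamonds); dotted lines mark the medians of all genes at 0.02 and -2.56. The C1q chains, Apoe and Csf1r lie below both medians, and Fcer1g, Xcr1 and Zbtb46 lie above each, although Xcr1 and Zbtb46 are negative with the leukocyte scaling.

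Granulocyte and mast cell genes were near the limit of detection. They summed to 2.21, 1.13 and 2.49 CPM in libraries labelled Batf-deficient and 7.99, 12.3 and 11.3 CPM in those labelled control, and only 2 of 6 could be tested. Mcpt1, a chymase of mucosal mast cells (chr14:56017971-56020384, GRCm38), had 0 counts in every library labelled Batf-deficient and 59, 38 and 119 counts in those labelled control (adjusted p = 8.12e-05, edgeR). Set against 3 counts over the group it was 40.5-fold lower, or 21.7-fold without Batf-deficient replicate 3. With all libraries the exact 95% counting interval began at 32.7-fold. Its neighbour Mcpt2 (chr14:56042041-56044642), another mucosal chymase, had 0, 0 and 2 counts in libraries labelled Batf-deficient and 3, 48 and 14 counts in those labelled control. Per scaled total that was 18.3 times as many in the libraries labelled control (95% counting interval 4.87 to 154), without overlap, but the gene was not tested. The ratio was 7.58 without control replicate 2 and, set against 3 counts, 6.52 without Batf-deficient replicate 3. The coding sequences of the 2 chymases are identical at 597 of 731 aligned bases (81.7%), with identical runs of up to 49 bases. Their first 150 coding bases (GENCODE M21) are shown with the 14 differences in capitals, since reads from the identical stretches may be counted for either:

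Mcpt1: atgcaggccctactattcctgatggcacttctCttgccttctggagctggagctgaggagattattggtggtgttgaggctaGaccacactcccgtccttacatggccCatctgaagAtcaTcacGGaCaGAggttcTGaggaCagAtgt

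Mcpt2: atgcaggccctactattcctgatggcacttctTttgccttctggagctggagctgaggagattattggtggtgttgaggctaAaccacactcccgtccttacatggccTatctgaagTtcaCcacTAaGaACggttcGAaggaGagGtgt

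Cpa3, carboxypeptidase A of mast cells and basophils, had 1.24, 0.567 and 0.964 CPM in libraries labelled Batf-deficient and 1.03, 3.02 and 1.35 CPM in those labelled control. The groups overlapped, and it was not called (log2 fold change -0.96 ± 0.62 SE, adjusted p = 0.196, edgeR), whereas with the leukocyte scaling it was lower at -3.52 (adjusted p = 0.000198). On the wider list of mast cells and basophils, 4 of 12 genes in the table were tested, of which 1 was lower, 1 higher and 2 not called. Of all genes tested, 34.1% were lower and 30.2% higher. The lower gene, the transcription factor Gata2, had 1 count in libraries labelled Batf-deficient and 98 in those labelled control (adjusted p = 0.000325, edgeR). Gata2 entered the test only through its level in libraries labelled control. The higher gene, Mitf, a transcription factor of mast cells and pigment cells, averaged 2.90 ± 0.849 CPM in libraries labelled Batf-deficient and 0.986 ± 0.322 CPM in those labelled control (adjusted p = 0.0223), and was -0.996 on the log2 scale with the leukocyte scaling. Mitf entered the test only through its level in libraries labelled Batf-deficient.

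S100a8 and S100a9, the subunits of the neutrophil protein calprotectin, could not be tested. S100a8 had 1, 3 and 3 counts in libraries labelled Batf-deficient and 0, 5 and 15 in those labelled control. S100a9 had 0, 0 and 8 counts in libraries labelled Batf-deficient and 7, 10 and 8 in those labelled control. Both overlapped between the groups. On the wider neutrophil list, 3 of 5 tested genes were lower, 1 higher and 1 not called. Of all genes tested, 34.1% were lower and 30.2% higher. Mmp9, a gelatinase stored in neutrophil granules and also made by other cells, averaged 4.79 ± 0.532 CPM in libraries labelled Batf-deficient and 30.5 ± 3.78 CPM in those labelled control (SD, n = 3 each; adjusted p = 3.05e-07, edgeR). Retnlg, a resistin-like protein of neutrophils, averaged 0.466 ± 0.158 CPM in libraries labelled Batf-deficient and 10.3 ± 0.250 CPM in those labelled control. Ltf, lactoferrin of neutrophil granules and of secretory epithelium, was the other lower gene, with 2 counts in libraries labelled Batf-deficient and 155 in those labelled control. Retnlg and Ltf entered the test only through their level in libraries labelled control. Cxcr2, a receptor for neutrophil chemokines, was higher, at 7.52 ± 2.64 CPM in libraries labelled Batf-deficient and 2.14 ± 0.475 CPM in those labelled control (adjusted p = 0.00203), and was -0.79 on the log2 scale with the leukocyte scaling (adjusted p = 0.109).

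Siglecf, a sialic acid receptor of eosinophils that is also found on tuft cells of the epithelium, had 6, 1 and 6 counts in libraries labelled Batf-deficient and 5, 62 and 37 counts in those labelled control, which overlap. Per scaled total there were 4.50 times as many in the libraries labelled control (counting interval 2.52 to 8.74), or 2.88 times without control replicate 2, and the gene was not tested. On the wider eosinophil list, 2 of 3 tested genes were lower and 1 was not called, where 34.1% of all genes were lower and 30.2% higher. Alox15, a lipoxygenase of eosinophils and peritoneal macrophages, had 0 counts in every library labelled Batf-deficient and 35, 76 and 228 in those labelled control, at least 63.6-fold lower against 3 counts over the group, or 35.1-fold without control replicate 3 and 34.0-fold without Batf-deficient replicate 3. Prg2, the major basic protein of eosinophil granules, averaged 0.733 ± 0.145 CPM in libraries labelled Batf-deficient and 4.83 ± 2.16 CPM in those labelled control (adjusted p = 0.000906, edgeR). Alox15 and Prg2 entered the test only through their level in libraries labelled control.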

How the data were processed

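The authors deposited 1 table of raw counts per gene symbol for the 6 libraries, on build mm10 (submitters' processing notes). Not given in the sources used here are the aligner, the counter, the annotation and whether strand was used. Groups follow the genotype labels. The test was that of edgeR 4.0.16 under R 4.3.3 (filterByExpr by group with a minimum count of 10, TMM factors, robust glmQLFit, two-sided glmQLFTest, Benjamini-Hochberg over 15261 genes, threshold 0.05). Each fold change sets the libraries labelled Batf-deficient over the controls unless a ratio says otherwise. The SE is the size of the log2 fold change over the root of F. Sums of 20 leukocyte genes and of 21 ILC and T cell genes served as other library sizes, and limma 3.58.1 voom and DESeq2 1.42.0 as other tests. Genes that miss the filter are given as counts, with exact 95% counting intervals for ratios, or as a value set against 3 counts. Smart-seq2 has no molecular identifiers, so intervals and floors cover counting error only.

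Named genes were all 32 members, Batf, Ptprc, Thy1 and Spi1, and from each wider list at most 3 in each direction with the lowest p. Lyn and Plcg2 were named beyond this rule, after their values were seen. Lyz1, Gm49368, Hmgxb3 and Clec1b were added as neighbours, and the pairs in count ratios were picked with their values in view. The members and the lists were chosen with earlier results of these data known. Sequence alignments used Biopython 1.88. The series design calls the libraries biological replicates, but the first 2 Batf-deficient ones were most alike (chi-square of 2.36 per gene, where other pairs of libraries had 14.8 to 24.2). Whether they came from separate animals is not given, so p-values measure the spread between these libraries, which may be technical.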

Additional observations from a re-analysis of the deposited data

How the results depend on the processing

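Scaling decided most. The counts of all genes called were 4612 higher and 5209 lower; library totals gave 3048 higher, the ILC and T cell panel 319 higher and 13176 lower, and the leukocyte panel 256 higher and 13486 lower. The 32 genes had 3 higher with TMM and 0 with either panel. The median log2 fold change of the 25 tested, 9 of which entered only through the libraries labelled control, was -2.997. It became -3.38 with library totals, and -5.35 and -5.55 with the ILC and T cell and the leukocyte panel. With at least 50 counts in 3 libraries it was -3.23, over 20 genes. The log2 ratio of summed CPM was -0.49 for the macrophage genes (-0.87 with library totals, -3.07 with the leukocyte panel), 0.30 for the dendritic genes (-0.081 and -2.28) and -2.44 for the granulocyte and mast cell genes (-5.02 with the leukocyte panel). With the ILC and T cell panel and the leukocyte panel, the direction turned for Ctss (-2.36, -2.55), Flt3 (-2.32, -2.51), Fcgr3 (-1.94, -2.14), Xcr1 (-1.15, -1.34) and Zbtb46 (-1.70, -1.90), and Fcer1g lost its call (0.22, adjusted p = 0.0501, and 0.02, adjusted p = 0.827; edgeR). Ctss and Flt3, near 0 and not called with TMM, also turned with RLE factors (-0.018, -0.0059), library totals (-0.36, -0.34), DESeq2 (-0.039, -0.023) and Batf-deficient replicates 1 and 2 summed (-0.0095, -0.088). Ctss turned with no filter (-0.0015) and without Batf-deficient replicate 1, 2 or 3 (-0.050, -0.0052, -0.047), and Flt3 turned with voom (-0.014), without Batf-deficient replicate 2 (-0.45) and without control replicate 2 (-0.17).

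Leaving out each library in turn gave 3603 to 4705 genes higher and 5149 to 5451 lower, 3 to 4 of the 32 genes higher and 17 to 21 lower, and a median of -3.11 to -2.77; Ctss ran from -0.050 to 0.045 and Flt3 from -0.45 to 0.23. Same-numbered libraries deviated together with correlations of only 0.011, 0.035 and 0.047, so the numbers were not taken as pairs. With the replicate number as a block, 4603 genes were higher and 5091 lower, and among the 25 tested members only Cx3cr1 lost its call, which it also lost with voom, with the summed libraries and without 4 of the 6 single libraries. Low counts limit 7 of the 32 genes, which were not tested. Causes of these changes were not tested.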
